A study of Mus musculus with 4 samples.

Results

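The genes described here encode the constitutive proteasome, together with its activators, its inhibitor and the chaperones that assemble it. They were taken from the authors' deposited table as every gene symbol that begins with Psma to Psmg followed by a number. Psmb8, Psmb9 and Psmb10, which encode the catalytic subunits of the immunoproteasome, were left out and serve below as a comparison. The rule found 45 of 11883 genes, of which 43 are proteasome genes. The other two symbols were Psmc3ip, which encodes a meiotic recombination factor that binds Psmc3, and Psme2b, a gene copy of Psme2.

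RNA had been sequenced from lung Th2 cells of C57BL/6 mice that received papain, an allergenic enzyme from papaya, over a chronic schedule. Live cells carrying both CD4 and T1/ST2 (the interleukin-33 receptor) had been sorted. All 4 samples carried Gata3(fl/fl), a Gata3 gene with sites that Cre recombinase can cut; 2 samples carried no Cre (control) and 2 carried Klrg1Cre as well (Klrg1Cre). Ages were not given in the sources used here, nor was it said whether samples came from separate mice, so every p-value measures a spread that may be technical. The table heads its group means WT and ILC2 deficient, where ILC2 are group 2 innate lymphoid cells. WT was taken as control and ILC2 deficient as Klrg1Cre, a link that the labels do not state. No group carried Klrg1Cre without floxed Gata3, so the Cre allele, Gata3 loss in Th2 cells and a lack of ILC2 cannot be told apart. In such bulk samples, fewer cells of a type and less RNA per cell cannot be told apart either.

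The proteasome is the barrel-shaped protease that degrades proteins tagged with ubiquitin. Its 20S core is built of outer rings of alpha subunits, which gate the entrance, and inner rings of beta subunits, of which Psmb5, Psmb6 and Psmb7 encode the proteolytic ones. The 19S cap binds, unfolds and feeds in the substrate by means of a ring of ATPases (Psmc genes) and a set of non-ATPase subunits (Psmd genes). Lymphocytes also express the immunoproteasome, whose catalytic subunits replace the constitutive ones during assembly and favour peptides that fit MHC class I.

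The values are read counts scaled to library size (CPM, in which the values of a library have a fixed total), deposited as 1 mean per genotype. Levels of single libraries were worked out where exactly 1 pair of whole read numbers gave the deposited mean. This succeeded in all 4 libraries for 31 of the 45 members. The Klrg1Cre libraries held 26019065 and 14564426 reads by this reckoning, the control libraries 33379572 and 31961572. Which library is which labelled sample is unknown, so each is called the larger or the smaller library of its genotype. Rn45s, the precursor of ribosomal RNA, accounted for 67.1% of reads in Klrg1Cre and 51.4% in control, and the other listed genes for 18.2% and 17.8%. Gata3, the gene with the Cre sites, had deposited means of 293.9 in Klrg1Cre against 221.4 CPM in control (adjusted p = 0.551). Klrg1 had 4.19 and 48.4 CPM (adjusted p = 0.0701). Which Gata3 exons lie between the Cre sites was not given in the sources used here, so the Gata3 level does not check a deletion. Of the T cell markers, 6 of 7 were listed and together had 762.6 against 758.5 CPM. Macrophage and monocyte markers, all 11 of which were listed, had summed deposited means of 1622 CPM in Klrg1Cre against 2387 in control. Chil3, at 1124 against 1932 CPM, made up most of that sum, and the other 10 markers summed to 497.8 against 454.5 CPM, with Marco listed at 0 in control. B cell markers summed to 1.72 against 3.18 CPM with Ms4a1 listed at 0 in Klrg1Cre, and epithelial markers to 9.23 against 8.53 CPM (Epcam 0.921 against 2.78, Scgb1a1 4.23 against 2.57). The list for ILC2, whose genes Th2 cells share in part, summed to 497.5 against 533.2 CPM. More than any other gene, Gata3 made up this sum, which also includes Klrg1. The rest of the list had Il1rl1 at 59.1 against 68.0, Rora at 78.6 against 94.5, Arg1 at 53.9 against 98.5 and Nmur1 at 7.73 against 2.40 CPM. The part of these other cells in the results on proteasome genes was not tested.

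Promoter letters are shown first, because they are a feature of these genes that the rule did not use. RefSeq promoters (build GRCm38.p6, 300 bases each, from 250 before the start site to 50 after it) matched 38 of the 45 members with 41 promoters. Psmb1, Psmb2, Psmb7, Psmc3, Psmd3, Psmd7 and Psmg2 had no entry. The expression data were aligned to another build, mm9, so the positions below belong to the promoter table alone. The 6 letters GGAAGT, the core that ETS transcription factors bind, were searched on both strands. They stood in 22 of 41 member promoters (53.7%), against 29.3% of 12012 promoters of all genes in the table and 23.8% of all 32851 promoters. Some genes have several promoters. Counted by gene, the gap was narrower, with the letters in 52.6% of 38 members and 33.8% of 9432 genes in the table. The members held 27 matches, and 20 of these lay after the start site or within 100 bases before it. Matches from 7 members of different roles are printed 5′ to 3′ on the strand that reads GGAAGT, with the match in capitals.

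Psma1 (alpha ring, chr7:114276103-114276128, plus strand): cggcgacgcaGGAAGTgcaatctatc
Psmb4 (beta ring, chr3:94886948-94886973, plus strand): caccggaaacGGAAGTggtcctttgc
Psmc4 (ATPase, chr7:28050066-28050091, plus strand): tgacgccaacGGAAGTccttcacata
Psmd8 (non-ATPase, chr7:29180675-29180700, plus strand): aatggcgaacGGAAGTccgttcgctc
Psmd13 (non-ATPase, chr7:140882380-140882405, plus strand): ccgcggtgccGGAAGTgagcgagcac
Psme3 (activator, chr11:101316204-101316229, minus strand): cgctcacgccGGAAGTtgcgtcacag
Psmg3 (chaperone, chr5:139826873-139826898, minus strand): gacaggaaccGGAAGTtctcgccggg

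The letters TGACNNNGC, a form of the antioxidant response element that NRF1 (Nfe2l1) binds to raise proteasome genes when the proteasome is inhibited, were in 6 of 41 member promoters. This was 14.6%, against 14.5% for promoters of all genes in the table. CCAAT, the core bound by NF-Y, was in 31.7% of member promoters against 37.8%. No match of one of the 3 motifs overlapped a match of another. The genes for 2 of the 3 proteolytic subunits, Psmb5 and Psmb6, were among the 6 with TGACNNNGC. They are shown with Psmd9, a chaperone of the cap that holds this match and a GGAAGT match (read as acttcc on the strand printed).

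Psmb5 (chr14:54618024-54618052, minus strand): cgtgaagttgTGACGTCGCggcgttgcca
Psmb6 (chr11:70525338-70525366, plus strand): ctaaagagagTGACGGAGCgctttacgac
Psmd9 (chr5:123228149-123228177, plus strand): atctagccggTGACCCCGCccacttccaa

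The first comparison asked whether proteasome genes differed between Th2 cells of the 2 genotypes. None of the 45 members passed an adjusted p of 0.05 in the authors' deposited table, where 7 of all genes did (0.0589%, of which 0.0252% were higher and 0.0337% lower in Klrg1Cre). At an unadjusted p below 0.05 there was 1 member, Psmd3, which was higher in Klrg1Cre. Of all genes 7.09% had such a p, 3.72% higher and 3.37% lower. Klrg1Cre had the higher deposited mean for 29 members and the lower for 16, where 50.6% of all genes were higher. Over the 31 split members 17 were higher, so most of this majority lay in members that could not be split. Among the split members the count depended on single libraries. With 1 Klrg1Cre library left out it was 15 (without the larger) or 18 (without the smaller). With 1 control library left out it was 11 (without the larger) or 23 (without the smaller). Members that could not be split are not part of these counts. The median log2 ratio of Klrg1Cre over control was 0.04 for the members and 0.01 for all genes. Member ratios ran from 0.812 for Psmd6 to 1.43 for Psmd3, and 42 of 45 members lay within 1.25-fold. This was so for 63.6% of all genes, and for 80.5% of 6300 genes whose mean reached 5 CPM, as those of 40 members did. Summed over all members the deposited means came to 984.3 CPM for Klrg1Cre and 941.4 CPM for control, or 0.542% and 0.528% of the listed reads other than Rn45s.

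**Figure D1:**
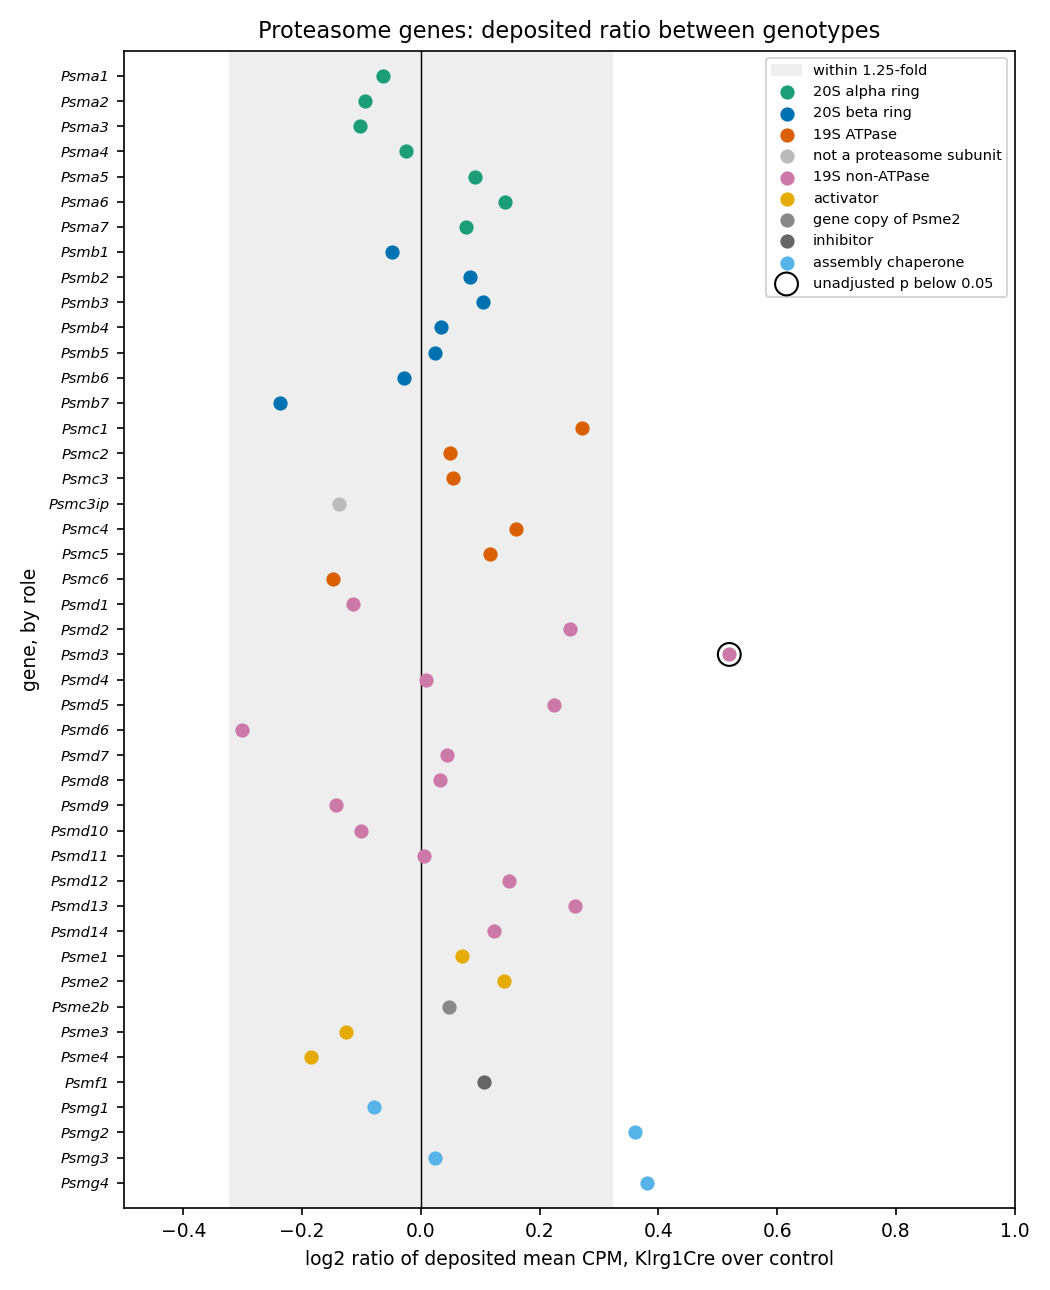
Log2 ratio of the deposited mean CPM (Klrg1Cre over control, horizontal axis) for each of the 45 members, by role. The grey band marks ratios within 1.25-fold, and 42 members lie in it; Psmd3, circled, is the 1 member with an unadjusted p below 0.05, and Psmg4 and Psmg2 are the others outside the band.

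How small a difference these samples could exclude was read from limma, fitted to log2(CPM + 1) of the 4242 split genes that reached 1 CPM. Across genes, which are not independent replicates, its p-values followed those of the authors with a Spearman correlation of 0.998. For 29 of the 30 members fitted the 95% interval included no difference, and 7.87% of the genes fitted had a limma p below 0.05. Across the 30 members the interval bounds ran from 0.603-fold to 1.82-fold, so a 2-fold difference lay outside each interval. A 1.5-fold difference lay inside the interval of 6 members. On this scale, changes of members with low means are understated.

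Alpha subunits of the 20S core form the ring that opens to admit the substrate. All 7 genes of the ring found in the table, Psma1 to Psma7, had deposited ratios between 0.931 (Psma3) and 1.10 (Psma6). Klrg1Cre had the higher mean for 3 of them and the lower for 4, and the smallest unadjusted p was 0.438. Psma7, the most abundant member after Psmd8 in CPM, had deposited means of 51.9 in Klrg1Cre against 49.2 CPM in control (ratio 1.05, adjusted p = 0.925). Psma1, Psma2, Psma4 and Psma5 had ratios of 0.956, 0.937, 0.983 and 1.07. Summed over the ring, the deposited means were 151.9 and 151.2 CPM.

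Among the beta subunits, Psmb1 to Psmb7, deposited ratios ran from 0.848 (Psmb7) to 1.08 (Psmb3), 4 above and 3 below 1. The structural subunit genes Psmb1, Psmb2 and Psmb4 had 0.967, 1.06 and 1.02. Psmb5, which encodes the chymotrypsin-like site and the main target of proteasome inhibitors, had 22.6 and 26.8 CPM in the larger and smaller Klrg1Cre library and 22.5 and 26.03 CPM in those of control. The libraries of both genotypes interleaved, and the ratio of the deposited means was 1.02 (adjusted p = 0.981). Psmb6, which encodes the caspase-like site, had 50.3 and 45.0 CPM in Klrg1Cre against 47.1 and 50.1 CPM in control. These groups overlapped too, with a deposited ratio of 0.980 (adjusted p = 0.971). Psmb7, which encodes the trypsin-like site, had 8.19 and 6.52 CPM in Klrg1Cre against 8.30 and 9.04 CPM in control. Both Klrg1Cre libraries were below both control libraries, although the larger one by little, and the deposited ratio was 0.848 (adjusted p = 0.833). The Psmb7 transcript shares exonic bases with Nek6 on the opposite strand. Strand use in the counting was not given in the sources used here, so reads of such a pair may be mixed.

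The 19S ATPases, Psmc1 to Psmc6, form the ring that unfolds the substrate. Klrg1Cre had the higher deposited mean for 5 of 6, with ratios from 0.903 (Psmc6) to 1.21 (Psmc1) and a smallest unadjusted p of 0.264. Psmc2, Psmc3 and Psmc5 had ratios of 1.03, 1.04 and 1.08. Psmc4 had 37.0 and 35.9 CPM in Klrg1Cre against 33.2 and 32.1 CPM in control, which did not overlap. Its deposited ratio was 1.12 (adjusted p = 0.825). Psmc1 did not overlap either, at 7.19 and 8.79 CPM against 7.01 and 6.23 CPM, and a pseudogene has 95.6% identity with 1306 bases of its transcript.

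The non-ATPase group, Psmd1 to Psmd14, had 10 higher and 4 lower deposited means in Klrg1Cre, with a median log2 ratio of 0.04. Psmd5, Psmd9 and Psmd10 of this group act as assembly chaperones of the base, and without them 9 were higher and 2 lower. Psmd3, which encodes a lid subunit, had 33.5 CPM in the larger and 30.9 CPM in the smaller Klrg1Cre library. In control it had 25.05 and 19.9 CPM, so both Klrg1Cre libraries were above both control libraries. These levels rest on 871, 450, 836 and 635 reads. Their 95% Poisson intervals cover counting error only. The nearest ones, 28.1 to 33.9 CPM (smaller Klrg1Cre library) and 23.4 to 26.8 CPM (larger control library), did not meet. Nor did those of the 2 control libraries, with 18.4 to 21.5 CPM for the smaller one. Intervals that do not meet thus do not set the genotypes apart here. The deposited ratio was 1.43 with an unadjusted p of 0.0103, which did not pass adjustment over all genes (adjusted p = 0.551). The limma interval was 1.11-fold to 1.82-fold. Without the smaller control library the log2 ratio of Psmd3 was 0.36 in place of 0.52, and limma's unadjusted p was 0.0976 in place of 0.0102. Psmd3 shares exonic bases with Gm12356 on the opposite strand.

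Other cap subunits were closer. Psmd13 had 36.6 and 38.6 CPM in Klrg1Cre against 31.0 and 31.8 CPM in control, with no overlap and a deposited ratio of 1.20 (adjusted p = 0.738). It shares exonic bases with Sirt3 on the opposite strand. Psmd2, a large scaffold subunit of the base that binds ubiquitin receptors, had deposited means of 46.0 and 38.7 CPM (ratio 1.19, adjusted p = 0.747) and could not be split. Psmd6, a lid subunit, had 13.0 and 9.27 CPM in Klrg1Cre against 14.02 and 13.5 CPM in control. Both were below control, but the smaller Klrg1Cre library set the size of the difference. The log2 ratio was -0.30 with both, -0.57 without the larger and -0.08 without the smaller Klrg1Cre library. Its adjusted p in the deposited table was 0.770, and limma's unadjusted p was 0.159 with all libraries and 0.0324 without the larger Klrg1Cre library. Psmd8, the member with the highest mean, had 58.5 and 53.2 CPM in Klrg1Cre against 56.02 and 53.2 CPM in control, and its groups overlapped (ratio 1.02). Psmd14, which encodes the deubiquitinase of the lid, had a ratio of 1.09, and Psmd4, a ubiquitin receptor, 1.01. Psmd11, another lid subunit, had the ratio nearest to 1, at 1.00. Psmd12, a lid subunit, was higher in both Klrg1Cre libraries (9.95 and 10.9 CPM) than in control (9.23 and 9.61 CPM). Psmd9 was lower in both, at 10.1 and 10.4 CPM against 12.0 and 10.7 CPM. The remaining Psmd genes, Psmd1 and Psmd7 of the cap and the chaperones Psmd5, Psmd9 and Psmd10, had ratios between 0.906 (Psmd9) and 1.17 (Psmd5).

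The activators open the core without the 19S cap. Psme1, whose product forms the interferon-inducible PA28 ring with that of Psme2, had 19.8 and 23.1 CPM in Klrg1Cre against 20.1 and 20.8 CPM in control. Its groups overlapped (deposited ratio 1.05, adjusted p = 0.954). Psme2 had deposited means of 18.7 and 17.0 CPM (ratio 1.10, adjusted p = 0.873) and its copy Psme2b 43.7 and 42.3 CPM (ratio 1.03). In the Psme2 transcript 794 bases match Psme2b at 99.4% identity, so the counting could have divided reads between them. Psme2b also shares exonic bases with 9930111J21Rik1 on the same strand. The levels of Psme2 and Psme2b are thus uncertain. Psme3, encoding the nuclear activator PA28 gamma, had 6.65 and 5.29 CPM against 6.23 and 6.79 CPM, which overlapped (deposited ratio 0.917). Psme4, encoding PA200, had the lowest mean of the 43 proteasome genes. It had 2.54 and 2.61 CPM in Klrg1Cre against 2.85 and 3.004 CPM in control, lower in both, with a deposited ratio of 0.880 (adjusted p = 0.926). The inhibitor gene Psmf1 had a ratio of 1.08.

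Assembly chaperones Psmg1 to Psmg4, which help the alpha ring to form, held the other two members outside 1.25-fold. Psmg4 had deposited means of 5.23 and 4.02 CPM (ratio 1.30, adjusted p = 0.794), and Psmg2 4.997 and 3.89 CPM (ratio 1.28, adjusted p = 0.797). Neither passed a test, and neither could be split in all libraries. Psmg1 and Psmg3 had ratios of 0.947 and 1.02. Psmc3ip, which is not a subunit, had 0.961 and 0.275 CPM in Klrg1Cre against 0.389 and 0.970 CPM in control. That is too low and too scattered to compare.

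The spread between libraries was set beside the difference between genotypes. The median difference between the 2 Klrg1Cre libraries was 0.17 on the log2 scale, that between the 2 control libraries 0.15, and that between genotype means 0.10, over the 31 split members. Over the 4242 split genes that reached 1 CPM these medians were 0.24, 0.23 and 0.19. A mean of 2 libraries varies less than a single library, so the last value is the smaller one also where nothing differs. The difference between genotypes exceeded both library differences for 5 of the 31 members (24.5% of the 4242 genes): Psmd3, Psmd13, Psmc4, Psmd12 and Psme4, named after their values were seen. Both Klrg1Cre libraries were above both control libraries for 5 members (19.3% of all 5351 split genes) and below them for 4 (18.3% of split genes). Members that did not overlap were thus 9 of 31, a share below that of all split genes.

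**Figure D2:**
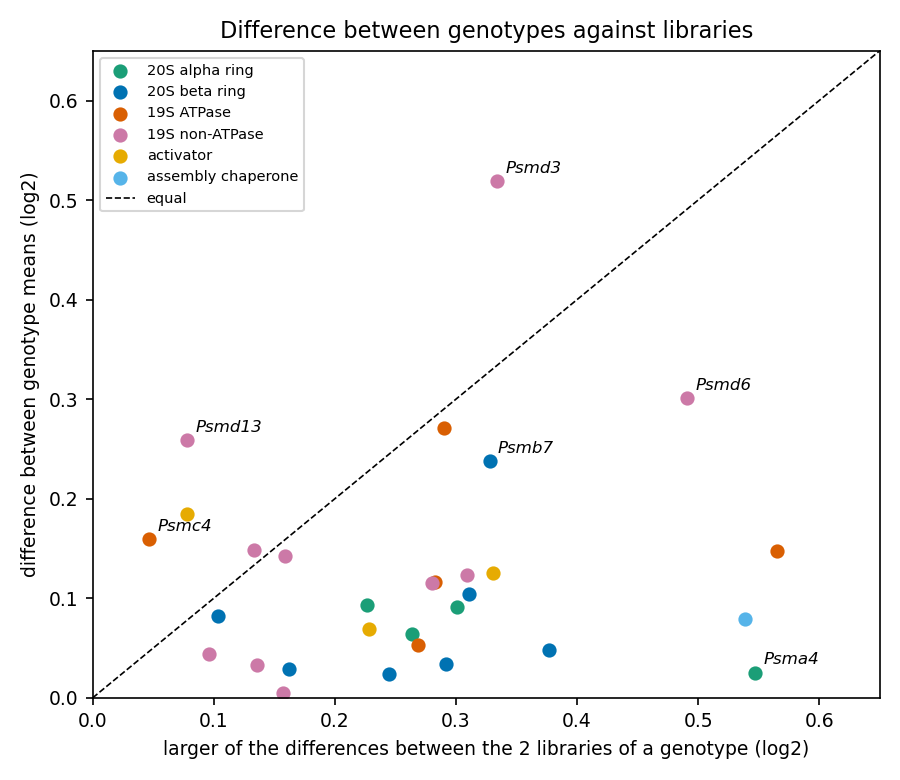
Size of the difference between genotype means (vertical axis, log2) against the larger of the differences between the 2 libraries of a genotype (horizontal axis, log2) for 30 split proteasome genes, with a dashed line where both are equal. Above the line lie 5 genes, Psmd3 the highest, where 24.5% of split genes that reached 1 CPM do; Psmc3ip is not drawn.

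Core and cap genes were also compared between the 2 control libraries. All 11 split genes of the 20S core were higher in the smaller control library than in the larger, by 1.06-fold to 1.46-fold. Of the 2688 split genes of at least 5 CPM, 48.9% were higher in the smaller control library. Summed over these 11 genes the level was 263.7 CPM in the larger and 305.7 CPM in the smaller control library, a ratio of 1.16. In Klrg1Cre the same sum was 285.1 and 285.8 CPM, between the control values, and 6 of the 11 genes were higher in the smaller library (52.1% of split genes of at least 5 CPM were). Of the 15 split genes of the 19S cap, 8 were higher in the smaller control library, and the sums were 325.3 and 330.6 CPM (ratio 1.02). Within the cap, the ATPases summed to 104.7 and 117.0 CPM (ratio 1.12) and the Psmd genes to 220.6 and 213.7 CPM (ratio 0.969). The cap genes summed to 350.6 and 350.7 CPM in the Klrg1Cre libraries, above both control libraries. Without Psmd3 these sums became 317.1 and 319.8 CPM, with 300.2 and 310.7 CPM in control. Of the 20 Psmc and Psmd genes, 15 had a higher mean in Klrg1Cre in the authors' deposited table, or 14 of 17 without the base chaperones Psmd5, Psmd9 and Psmd10. So did 7 of the 14 core genes and 50.6% of all genes. Scaling to the listed genes other than Rn45s shifts all log2 ratios by -0.026, in core and cap alike. Those of Psmd4 (0.0089) and Psmd11 (0.0053) in the cap and of Psmb5 (0.024) in the core then fall below 0. The median log2 ratio was 0.05 for the cap genes with or without the chaperones and -0.00059 for the core. This pattern was noticed in the values, and the difference between core and cap was not tested.

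**Figure D3:**
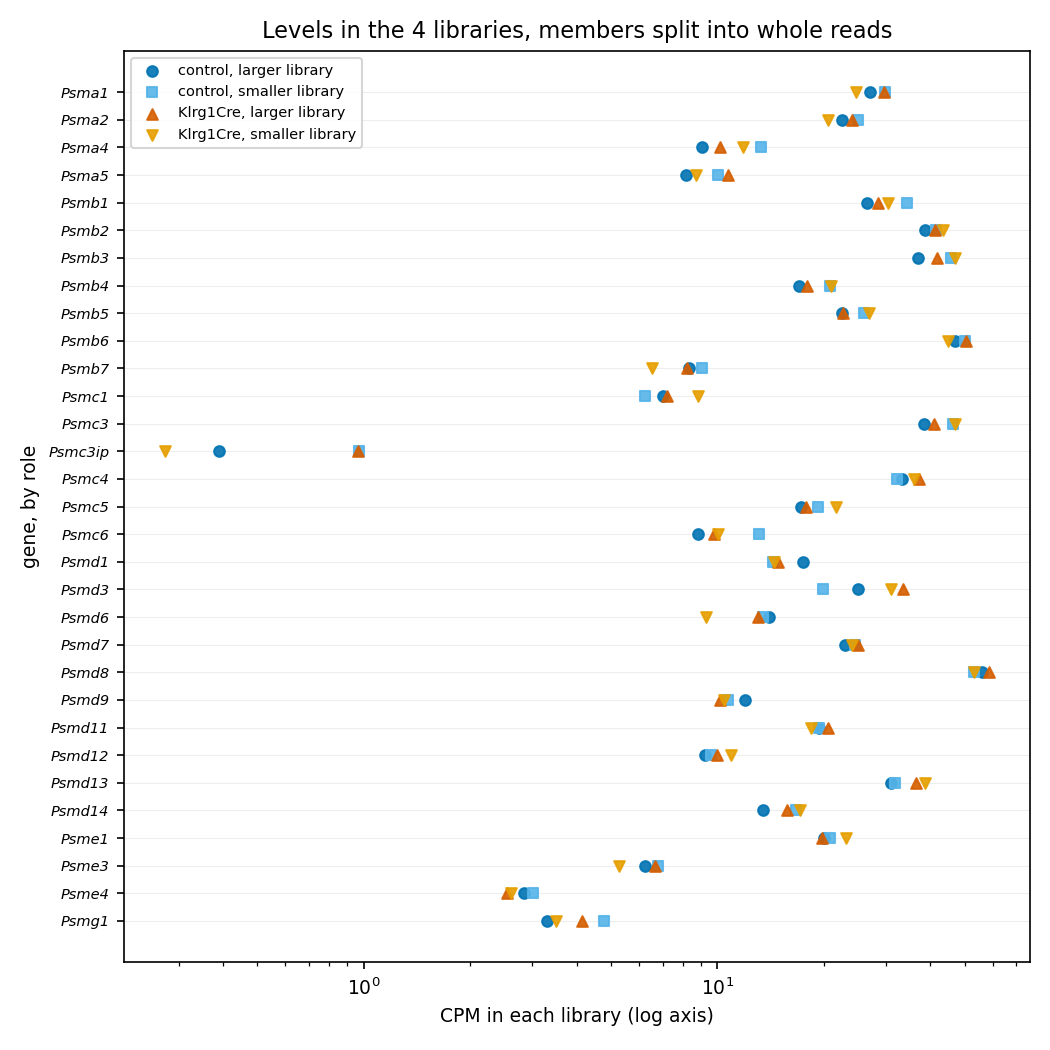
CPM (log axis) of the 31 members that could be split, with 1 symbol for each of the 4 libraries. For core genes from Psma1 to Psmb7 the square (smaller control library) lies to the right of the circle (larger control library) in all 11. Their Klrg1Cre triangles lie between, beside or beyond these. Both triangles lie to the right of both control symbols for 5 members, Psmc1, Psmc4, Psmd3, Psmd12 and Psmd13, and to the left for 4. Over all split genes these shares are 19.3% and 18.3%.

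Levels of different genes were compared per kb of transcript (GENCODE M21, principal transcript), since longer transcripts collect more reads. The subunits of the alpha ring and of the ATPase ring enter the particle in equal numbers, but their transcripts did not have equal levels. In control the alpha ring ran from 5.45 CPM per kb for Psma3 to 53.8 CPM per kb for Psma7, a 9.87-fold range. Per kb of coding length the range was 5.24-fold, from Psma5 to Psma7. The beta ring ran from 7.47 CPM per kb for Psmb7 to 60.9 CPM per kb for Psmb6, 8.15-fold (6.52-fold by coding length). Psmb5, Psmb6 and Psmb7 share their positions in this ring with Psmb8, Psmb9 and Psmb10, so equal levels are not implied for them. The structural genes Psmb1 to Psmb4 ran from 16.03 CPM per kb (Psmb4) to 53.9 CPM per kb (Psmb3) in control. The ATPase ring ran from 4.16 CPM per kb for Psmc1 to 25.9 CPM per kb for Psmc3, 6.23-fold (6.37-fold by coding length). Klrg1Cre showed ranges of 11.2-fold, 9.42-fold and 6.07-fold for the 3 rings. Ranges within a ring were thus far wider than the difference between genotypes of any member. Near-identical gene copies, at least 90% identical over at least 50% of the transcript, exist for 12 members, with 7 pseudogenes for Psmb3 alone, and 9 of these 12 members were split into whole reads. Of the 33 members with no such copy, 22 were split.

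The immunoproteasome genes served as the comparison for the 3 proteolytic subunits. Psmb8, which replaces Psmb5, had 160.8 and 160.1 CPM in Klrg1Cre against 138.7 and 162.4 CPM in control, the highest level of any proteasome gene in CPM. Psmb9, which replaces Psmb6, had 22.1 and 29.4 CPM in Klrg1Cre against 22.1 and 24.1 CPM in control. Psmb10, which replaces Psmb7, had 39.9 and 35.5 CPM in Klrg1Cre against 36.9 and 29.9 CPM in control. All 3 had higher deposited means in Klrg1Cre, with ratios of 1.07, 1.11 and 1.13, and all 3 overlapped between groups and did not pass adjustment (adjusted p of 0.901, 0.891 and 0.829). Per kb of transcript, Psmb8 made up 77.4% of the Psmb5 and Psmb8 level in control and 78.2% in Klrg1Cre. Psmb10 made up 77.3% and 81.9% of its pair, and Psmb9 21.9% and 24.2%. The pair of Psmb6 and Psmb9 was thus the 1 pair in which the constitutive gene had the higher level. By coding length the control shares were 85.6% for Psmb8, 79.6% for Psmb10 and 34.04% for Psmb9, and Psmb9 was again the 1 immunoproteasome gene below its partner. In the 4 libraries the transcript share ran from 76.8% to 79.7% for Psmb8, from 74.5% to 82.8% for Psmb10 and from 20.6% to 27.8% for Psmb9. Only for Psmb10 were both Klrg1Cre libraries (81.2% and 82.8%) above both control libraries (79.8% and 74.5%). For the levels of single genes this was so for 19.3% of split genes, and no such share was worked out for pairs. The Psmb10 share also rests on Psmb7, whose reads may be mixed with those of Nek6. Psmb5 has 2 near-identical pseudogenes and Psmb6 has 1, while none was found for Psmb8, Psmb9 or Psmb10. The counting could have divided reads of Psmb5 and Psmb6 with these copies, so the Psmb8 and Psmb9 shares are uncertain. The effect of the copies on the shares was not tested.

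**Figure D4:**
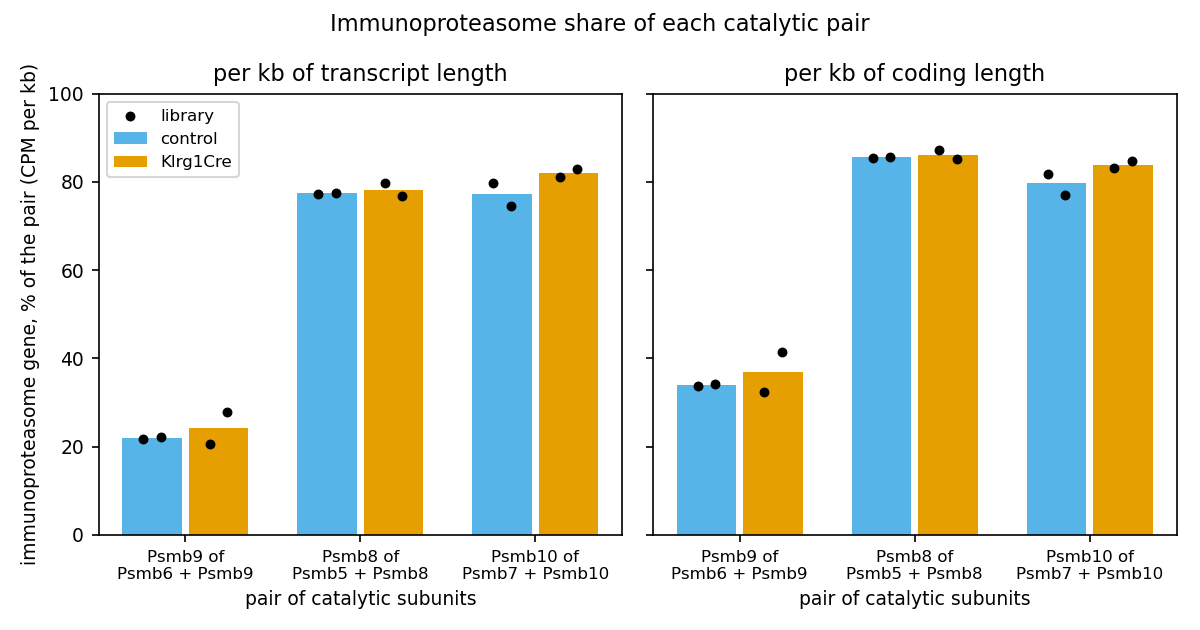
Share of the immunoproteasome gene in each catalytic pair (CPM per kb, percent), by transcript length (left) and coding length (right); bars are deposited means and points are libraries. Psmb8 and Psmb10 hold at least 74.5% of their pairs in every library, and Psmb9 at most 41.5% of its pair.

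Interferon raises the immunoproteasome genes, Psme1 and Psme2, so a list of 12 interferon-stimulated genes was set beside them. In the authors' deposited table, 9 of the 12 had lower means in Klrg1Cre, with a median log2 ratio of -0.32 and 5 with an unadjusted p below 0.05 (3.37% of all genes were lower with such a p). Of all genes, 50.6% had the higher mean in Klrg1Cre. None of the 12 passed adjustment over all genes. Ifit3 had 4.42 against 9.63 CPM and Isg15 5.61 against 10.3 CPM, while Irf1 and Gbp2 had ratios of 1.04 and 0.927. The 4 of the list that act in antigen presentation had ratios of 0.899 for Tap1, 1.03 for Tap2, 1.01 for Tapbp and 0.823 for B2m. Psme1, Psme2, Psmb8, Psmb9 and Psmb10 had ratios from 1.05 to 1.13. Psmb9 and Tap1 share exonic bases on opposite strands.

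Of 41 other genes of the pathway, counted with Psmb8, Psmb9 and Psmb10, 40 were listed. None passed adjustment and none had an unadjusted p below 0.05 in the authors' deposited table, while 25 had higher and 15 lower means in Klrg1Cre (median log2 ratio 0.02). Without those 3, 22 of 37 were higher and 15 lower. The smallest unadjusted p was 0.0552. Subunits and the maturation factor outside the Psm names were close, with ratios of 1.02 for the ubiquitin receptor gene Adrm1, 1.01 for the small cap subunit Sem1 and 1.01 for the core maturation factor Pomp. Vcp, encoding the unfoldase p97 that passes substrates to the proteasome, had a ratio of 1.01. Ubb, a polyubiquitin gene, had 1414 against 1390 CPM (adjusted p = 0.977). The deubiquitinase genes Usp14 and Uchl5 had ratios of 0.854 and 0.833.

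Genes that act on the transcription of proteasome genes had the highest median of these lists, 0.32 on the log2 scale. Of its 9 means 6 were higher in Klrg1Cre, where 50.6% of all genes were higher. The lists are short, some with 3 genes, and differences between them were not tested. Nfe2l1 itself had deposited means of 30.2 against 22.6 CPM (ratio 1.34, adjusted p = 0.720). Ddi2, the protease that cleaves NRF1, had 6.83 against 4.34 CPM (ratio 1.58, adjusted p = 0.764). It was listed with the shuttles and p97, a list with 5 higher and 4 lower means. Ngly1, which removes the sugars of NRF1, had 10.8 against 8.61 CPM (ratio 1.25, adjusted p = 0.764). Nfe2l1, Ddi2 and Ngly1 could not be split, so their spread between libraries is unknown. Mafk, a small partner of NRF factors, had 13.9 and 11.8 CPM in Klrg1Cre against 10.2 and 9.70 CPM in control, without overlap (adjusted p = 0.729). The other small Maf genes were Mafg, whose 9.49 and 3.50 CPM overlapped 4.22 and 5.23 CPM in control, and Maff, with a ratio of 0.978. Nfyb, a subunit of NF-Y, had 10.1 and 10.5 CPM against 6.80 and 8.29 CPM, also without overlap (adjusted p = 0.706). Both Klrg1Cre libraries were above both control libraries for 19.3% of all split genes. Nfe2l2 had a ratio of 1.10, and Nfya and Nfyc 0.933 and 0.945. The Psmb5 and Psmb6 genes, whose promoters hold the letters TGACNNNGC printed above, had ratios of 1.02 and 0.980. The other members with these letters had ratios of 0.903 (Psmc6), 0.906 (Psmd9), 0.880 (Psme4) and 1.11 (Psmd12).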

How the data were processed

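Per the submitters' processing notes, the tools were STAR and Partek and the build mm9; versions were not given in the sources used here. The single table deposited by the authors gives 1 mean in CPM per genotype and gene. Per the file headers it also gives their ratio, a signed fold change (a score), p-values from a model that is not named, and a step-up adjusted p-value. In all 11883 rows the deposited ratio equalled 1 mean divided by the other, the deposited adjusted p was a Benjamini-Hochberg adjustment, and the deposited signal headed total counts was 2 times the sum of both means. An offset of 0.0001 CPM was removed before means were split into whole reads (tolerance 1e-09 reads). The split succeeded in all libraries for 5351 genes and was tested on simulated means. limma 3.58.1 in R 4.3.3 (trended variance) was fitted to log2(CPM + 1) of split genes of at least 1 CPM. Since fewer genes were split than not, no count model was fitted. Copies were found with BLAST 2.17.0 against GENCODE M21 transcripts. The members, lists and role groups were chosen with earlier results of these data known. Each member was named with its role. Values per library were given for members with an unadjusted p below 0.05 and for the 3 largest and 3 smallest ratios. They were also given for the 2 highest and 2 lowest means, Psmb5 to Psmb7, Psme1 to Psme4 and further members whose groups did not overlap. Of these members, Psmg4, Psmg2, Psma7 and Psme2 could not be split in all libraries, so only their deposited means were given. Alternatives tried were other offsets, filters and scalings, and leaving out libraries.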

Additional observations from a re-analysis of the deposited data

How the results depend on the processing

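No member passed an adjusted p of 0.05 over all genes, nor over genes of at least 1 CPM or of at least 5 CPM; limma called 0 of the 30 members it fitted after adjustment. The median log2 ratio of the members, 0.044, stayed between 0.018 and 0.046 under the other offsets, the 5 CPM filter, both other scalings, without Psmc3ip and over the 31 split members. With 1 library left out in turn it ran from -0.060 to 0.14, and it was below 0 without the larger control library and, at -0.0041, without the larger Klrg1Cre library. Of 45 members 29 had higher means in Klrg1Cre (64.4%); scaled to the listed genes other than Rn45s this was 25 (55.6%), and over the 31 split members 17 (54.8%). With 1 library left out in turn it was 11 to 23 of 31: 11 without the larger control library and 23 without the smaller one. The scaling and leave-out settings for this count were chosen after seeing the data. Members with an unadjusted p below 0.05 numbered 1 with the authors' test and 1 with limma. They numbered 0 to 2 with 1 library left out: 0 without the smaller control library, and Psmd3 and Psmd6 without the larger Klrg1Cre library. Among the named members, the log2 ratios of Psmb5, Psmb6, Psmc3ip, Psmd8, Psme1 and Psme3 changed sign when at least 1 of the libraries was left out, and that of Psmb5 also when scaled to the listed genes other than Rn45s; those of Psmb7, Psmd3, Psmd6 and Psme4 did not. No paired analysis was possible because the table has no column for a single sample, so the numbers in the sample titles cannot be tied to libraries. Depth limits the low members: Psmc3ip and Psme4 have means below 3 CPM.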
